A study of Macaca fascicularis with 6 samples.

Results

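The circadian clock output genes described here are *PER1*, *PER2*, *PER3*, *NR1D1*, *NR1D2*, *TEF*, *HLF*, *ARNTL* and *CIART*, which are 9 of the 13950 genes in the larger and of the 14020 genes in the smaller of the deposited single-cell matrices. They come from a list of 10 genes. *DBP*, the remaining gene of that list, was listed in neither matrix and could not be analysed. The list was chosen by the values of these same samples, namely the summed level of each gene, the share of cells with a read, the contrast of *ARNTL* with *NR1D1*, *TEF* and *HLF*, and the correlation across cells. These quantities are therefore given as descriptions, without a test.

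The cells were from the cynomolgus monkey and were profiled by TAS-Seq, a bead-based single-cell RNA-seq method. The study grew cartilage organoids (cyiPS-Cart) from an induced pluripotent stem cell line (cyiPSC), transplanted them into chondral defects of the knee, and asked what the cells became. Each of 5 conditions is 1 sample. The cyiPSC were the undifferentiated cells of a single line that expresses EGFP from a constitutive promoter. The pre-transplant cyiPS-Cart was the organoid made from that line in culture. The post-transplant cyiPS-Cart was taken from the defects of monkeys aged 3 to 4 years, 4 months after transplantation. Its label gives the wild-type genotype of the recipient, whereas the study's text traces its cells to the EGFP line. The cyAC was intact articular cartilage, and the cyFT was the fibrous tissue that filled defects left empty, in wild-type monkeys of the same age range. At the time of harvest, 3 monkeys with transplants and 3 with empty defects were sacrificed, and 2 defect sites of each monkey were combined for sequencing. Whether a library holds cells of all 3 animals, and which animals gave the cyAC, is not given in the sources used here. All tissues were digested with Liberase for 120 to 210 minutes at 37 °C. The pre-transplant organoid was digested in its culture medium with TGF-β1, GDF5 and BMP2, and cyAC and post-transplant cyiPS-Cart in RPMI-1640, while the medium for cyFT is not given in the sources used here. The clock time at which tissue was taken is also not given in the sources used here, so the phase of the day and the condition cannot be told apart in any comparison below.

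The smaller matrix held 320 cells of each tissue (cyAC, cyFT and the organoid before and after transplantation). The larger matrix held 2500 cyiPSC and 3527 pre-transplant cells, and 300 of the 320 pre-transplant cells of the smaller matrix were among them. cyiPSC and pre-transplant cells shared 1 library, cyAC and cyFT shared another, and post-transplant cells had their own. Library and condition therefore cannot be told apart for post-transplant cells, nor between pre-transplant cells and cyAC or cyFT. Between cells of different libraries, 0 to 2 barcodes were shared. Median reads per cell ranged from 27499.5 in cyFT to 143075 in cyiPSC. The summed level of 6 pluripotency genes was 684 CPM (reads per 1000000 reads of the sample) in cyiPSC and at most 14.1 CPM elsewhere, and that of 7 chondrocyte genes was 69.7 CPM in cyiPSC and 31803 CPM or more in the 4 tissues. The sum of 5 fibroblast genes did not follow the labels, since it was 72611 CPM in post-transplant cyiPS-Cart, above the 48027 CPM of the fibrous tissue cyFT, and 25568 CPM in pre-transplant and 9340 CPM in cyAC cells. Of these 5 genes, *COL1A1* was highest in cyFT, with 18192 CPM against 10168 CPM in post-transplant cells, and *COL1A2*, *COL3A1* and *LUM* were highest in post-transplant cells. The part of such cells in the results over all cells was not tested, and values within classes of *COL1A1* and *COL2A1* are given further on. Macrophage markers were concentrated in cyFT, where 16 of 320 cells had reads of at least 3 immune or macrophage markers, against 0 to 1 of 320 cells in the other tissues.

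The circadian clock is a loop of transcription factors that runs in most cells, chondrocytes included. ARNTL (also called BMAL1) with its partner CLOCK or NPAS2 switches on the *PER* and *CRY* genes, whose proteins then shut that pair down, and in the same phase it switches on *NR1D1* and *NR1D2* and the genes of the PAR-bZIP factors TEF, HLF and DBP. NR1D1 and NR1D2 (REV-ERBs) repress *ARNTL*, so that *ARNTL* transcripts peak in the opposite phase from *NR1D1*, *TEF* and *HLF*. *CIART* encodes a further repressor of the ARNTL pair. *PER1* and *PER2* also respond quickly to serum, glucocorticoids and cAMP, outside their daily rhythm.

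The clearest feature of these genes lay in the post-transplant sample. *NR1D1*, *PER1*, *TEF*, *HLF* and *CIART* were 17.2 to 30.4 times as high there as in the pre-transplant organoid, while *ARNTL* had the same level to within its counting interval over all cells. In native cartilage the same 5 genes were lower than in the transplant, and *ARNTL* again differed little. Levels are not compared between genes, since the reads are not corrected for transcript length.

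*NR1D1* had 11.9 CPM in cyiPSC, 57.4 CPM in the larger and 55.2 CPM in the smaller set of pre-transplant cells, 1257 CPM in post-transplant cyiPS-Cart, 132 CPM in cyAC and 289 CPM in cyFT. The post-transplant value was apart from all others, and the exact 95% Poisson intervals of the 5 conditions did not overlap. The ratio of post-transplant to pre-transplant was 22.8 (95% interval 21.5 to 24.1, exact conditional, counting error only), and that of post-transplant to cyAC was 9.53 (9.06 to 10.0). Reads were found in 95.9% of post-transplant cells (exact Clopper-Pearson 95% interval 93.2 to 97.8), against 44.4% (38.8 to 50.0) of pre-transplant cells, 45.3% (39.8 to 50.9) of cyAC cells and 62.2% (56.6 to 67.5) of cyFT cells. In the post-transplant sample every cell with a read had at least 10 reads of *NR1D1*, whereas cells with 1 read occurred in all other samples. The authors' background correction set low counts of strongly expressed genes to 0. Whether it acted on *NR1D1* in this sample is not given in the sources used here, so the share of cells may depend on it. The shares with at least 10 reads were 95.9% in post-transplant, 12.2% in pre-transplant, 16.9% in cyAC and 30.0% in cyFT cells. *THRA*, which overlaps *NR1D1* on the other strand, had 9.81 CPM in pre-transplant, 30.4 CPM in post-transplant, 16.7 CPM in cyAC and 20.02 CPM in cyFT cells. Whether strand was used in counting is not given in the sources used here, and a part of the reads of either gene could belong to the other.

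*NR1D2*, the paralog of *NR1D1*, was higher after than before transplantation but not above its cyAC level. It had 1.87 CPM in cyiPSC, 11.3 and 10.5 CPM in the larger and smaller pre-transplant sets, 28.6 CPM in post-transplant, 37.2 CPM in cyAC and 51.1 CPM in cyFT cells. The post-transplant level was 2.72 (2.35 to 3.17) times that of pre-transplant cells and 0.770 (0.685 to 0.865) times that of cyAC.

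Of the period genes, *PER1* had the widest range among the tissues. Its level was 14.2 CPM in cyiPSC, 12.6 and 9.11 CPM in the larger and smaller pre-transplant sets, 264 CPM in post-transplant, 65.6 CPM in cyAC and 166 CPM in cyFT cells. The ratio of post-transplant to pre-transplant was 28.9 (25.1 to 33.5), that of post-transplant to cyAC 4.02 (3.73 to 4.33), and that of cyFT to cyAC 2.52 (2.32 to 2.75). *PER2* had 6.51 CPM in cyiPSC, 25.1 and 22.7 CPM in the pre-transplant sets, 77.1 CPM in post-transplant, 64.2 CPM in cyAC and 69.7 CPM in cyFT cells. The intervals of *PER2* overlapped between post-transplant and cyFT and between cyFT and cyAC, so the place of cyFT was not resolved, whereas the post-transplant level was 1.20 (1.11 to 1.31) times that of cyAC. *PER3* had 36.2 CPM in cyiPSC, 40.1 and 38.3 CPM in the pre-transplant sets, 94.3 CPM in post-transplant, 74.3 CPM in cyAC and 111 CPM in cyFT cells. Its highest level was therefore in cyFT, and the post-transplant level was 1.27 (1.18 to 1.37) times that of cyAC.

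The PAR-bZIP genes *TEF* and *HLF* were also highest in the transplant. *TEF* had 19.7 CPM in cyiPSC, 9.18 and 7.80 CPM in the pre-transplant sets, 160.1 CPM in post-transplant, 29.3 CPM in cyAC and 56.8 CPM in cyFT cells. The post-transplant level was 20.5 (17.6 to 24.1) times that of pre-transplant cells and 5.47 (4.91 to 6.12) times that of cyAC. *HLF* was close to undetected in cyiPSC, with 56 reads in 23 of 2500 cells or 0.135 CPM. It had 2.35 and 2.02 CPM in the pre-transplant sets, 61.4 CPM in post-transplant, 12.5 CPM in cyAC and 11.5 CPM in cyFT cells. The ratio of post-transplant to pre-transplant *HLF* was 30.4 (22.5 to 42.1), from 43 pre-transplant reads, and its levels in cyAC and cyFT were within each other's counting intervals. *CIART* had 15.3 CPM in cyiPSC, 5.23 and 5.68 CPM in the pre-transplant sets, 98.0 CPM in post-transplant, 6.43 CPM in cyAC and 19.5 CPM in cyFT cells. In cyAC its level was close to that of the organoid, with a ratio of 1.13 (0.838 to 1.52) of cyAC to pre-transplant, while the ratio of post-transplant to cyAC was 15.2 (12.1 to 19.4). The cyAC value rests on 76 reads in 14 cells, so the size of the latter ratio is poorly set. Its log2 value on the scale of CPM + 1 was 3.74, against 2.69 with the mean of per-cell CPM and 5.03 without the 5 cells with most *CIART* reads. For *HLF* and *CIART* between post-transplant and pre-transplant cells, leaving out those 5 cells moved the log2 ratio from 4.37 to 4.98 and from 3.89 to 4.53.

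*ARNTL* had a narrow range among the tissues. Its level was 9.07 CPM in cyiPSC, 57.2 and 62.0 CPM in the larger and smaller pre-transplant sets, 59.2 CPM in post-transplant, 49.1 CPM in cyAC and 47.4 CPM in cyFT cells. The ratio of post-transplant to pre-transplant was 0.954 (0.888 to 1.03) and that of cyFT to cyAC 0.964 (0.855 to 1.09). The share of cells with an *ARNTL* read was 48.8% (43.2 to 54.4) in pre-transplant and 33.1% (28.0 to 38.6) in post-transplant cells. The share and the CPM gave different orders here, and no order is read from the share.

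**Figure D1:**
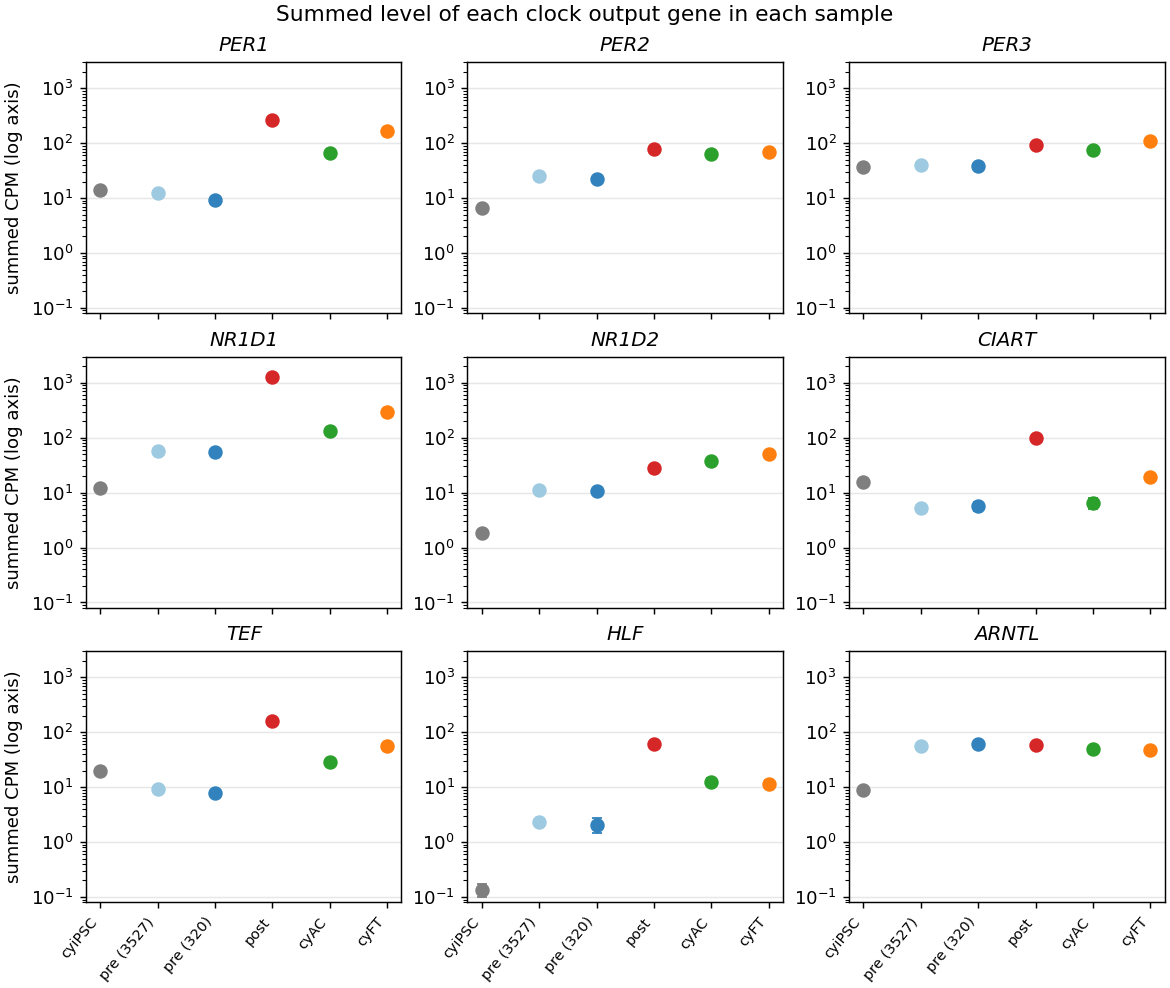
Summed CPM (log axis) of each of 9 clock output genes in each sample, with exact 95% Poisson intervals that are mostly smaller than the points. "Pre (3527)" and "pre (320)" are the pre-transplant cells of the larger and the smaller matrix. *NR1D1* is at 1257 CPM in post-transplant cells and at 289 CPM or less in all others, while *ARNTL* lies between 47.4 and 62.0 CPM in every tissue.

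Depth differed between the samples, so every cell was also thinned at random to 12191 reads, and 7, 8, 1, 0, 12 and 32 shallower cells of cyiPSC, the larger pre-transplant set, the smaller pre-transplant set, post-transplant, cyAC and cyFT were left out. The share with an *NR1D1* read was then 94.1% (90.9 to 96.4) in post-transplant, 28.2% (23.3 to 33.5) in pre-transplant, 35.1% (29.7 to 40.7) in cyAC and 56.2% (50.3 to 62.1) in cyFT cells. For *PER1* these shares were 61.6% (56.0 to 66.9), 6.58% (4.12 to 9.89), 24.7% (19.96 to 29.9) and 54.5% (48.6 to 60.4) in the same order, and the post-transplant and cyFT intervals overlapped. *TEF* was found in 60.0% (54.4 to 65.4) of post-transplant, 5.02% (2.89 to 8.02) of pre-transplant, 14.6% (10.9 to 19.1) of cyAC and 72 of 288 cyFT cells (interval 20.1% to 30.4%). At this depth a post-transplant cell had reads of a median of 4 of the 9 genes, against 1 in pre-transplant cells and cyiPSC and 2 in cyAC and cyFT. Reads of 5 or more of the 9 genes were found in 31.6% of post-transplant, 10.4% of cyFT, 1.95% of cyAC and 1.25% of pre-transplant cells. Since the genes were chosen by levels and shares in these samples, nothing is read from these counts. Equal reads are not equal molecules, since no molecular identifiers were counted. Before thinning, the median number of genes per cell was 2594.5 in post-transplant against 3765 in pre-transplant cells.

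**Figure D2:**
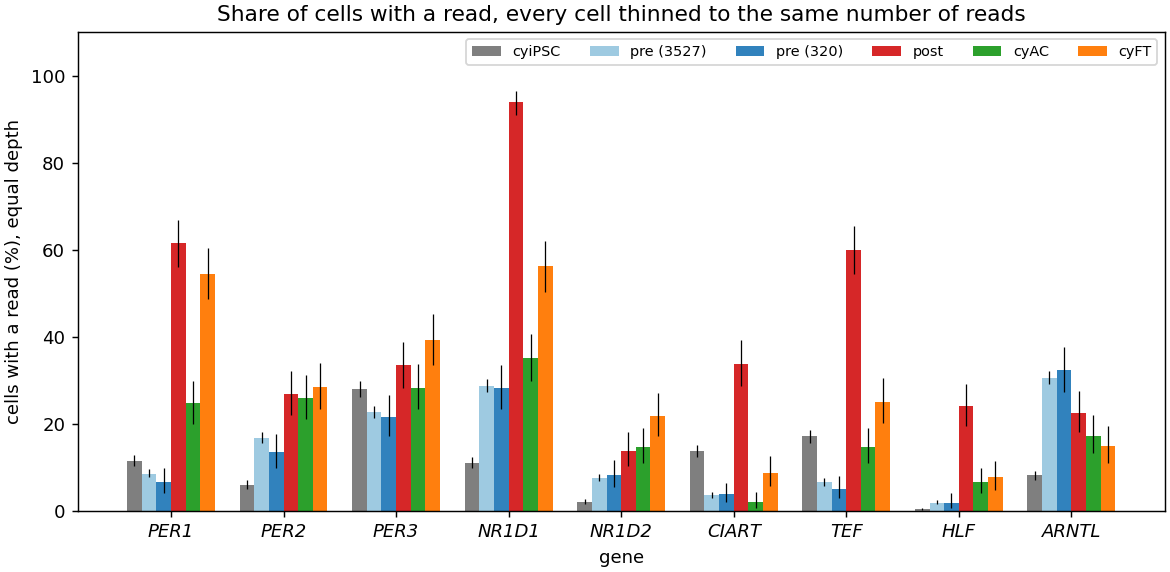
Percentage of cells in which a gene had 1 read or more, after thinning each cell to the same number of reads, with exact 95% Clopper-Pearson intervals as vertical lines. The post-transplant bar is the highest for *NR1D1* (94.1%), *PER1* (61.6%) and *TEF* (60.0%).

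Across the comparisons, a gene was counted as past 2-fold when its log2 ratio of CPM + 1 was at least 1 in size and it had at least 5 CPM in either sample. Since the list was selected on these contrasts, the counts are set beside those of all genes and nothing is read from them. Between post-transplant and pre-transplant cyiPS-Cart, 8 of the 9 genes were past 2-fold higher and 0 lower, where 9.71% of 8784 genes were past 2-fold higher and 18.2% lower. The median log2 ratio was 3.89 over the 9 genes and -0.22 over all genes. *PER1* ranked 10th, *NR1D1* 12th, *HLF* 15th, *TEF* 19th and *CIART* 34th of the 8784 genes from the highest ratio, whereas *PER2*, *NR1D2* and *PER3* ranked 362nd, 527th and 601st. Just inside the threshold were *PER3*, with a log2 ratio of 1.28, and *NR1D2*, with 1.36, and the only gene outside it was *ARNTL*, with -0.07. Mitochondrial genes took 1.97% of post-transplant reads and 5.51% of pre-transplant reads, and without them the same 8 genes were past 2-fold.

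Between post-transplant cyiPS-Cart and cyAC, 5 of the 9 genes (*PER1*, *NR1D1*, *TEF*, *HLF* and *CIART*) were past 2-fold higher and 0 lower, where 11.1% of 8902 genes were past 2-fold higher and 16.3% lower. Between cells without *FOS* reads, of which the post-transplant sample had 24, *PER1* was within 2-fold (log2 ratio 0.77) and *ARNTL* past it (1.41). Between cyAC and pre-transplant cyiPS-Cart, 6 genes (*PER1*, *PER2*, *NR1D1*, *NR1D2*, *TEF* and *HLF*) were past 2-fold higher and 0 lower, where 13.1% of 8989 genes were past 2-fold higher and 15.7% lower. In that comparison *PER3* was just outside, with a log2 ratio of 0.94 that TMM scaling brought to 1.05. *CIART* was past 2-fold with the mean of per-cell CPM (log2 ratio 1.15), and *PER2* was within it between cells without *FOS* reads (0.76). These comparisons share samples with one another and with that of post-transplant and pre-transplant cells.

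Between cyFT and cyAC, which came from 1 library, 3 of the 9 genes (*PER1*, *NR1D1* and *CIART*) were past 2-fold higher and 0 lower, where 13.4% of 9206 genes were past 2-fold higher and 4.73% lower. The median log2 ratio was 0.58 over the 9 genes and 0.20 over all genes, and *TEF* was just outside with 0.93. *NR1D1* was within 2-fold with TMM scaling (log2 ratio 0.94), which lowered all ratios of this comparison by 0.18, and *CIART* with the mean of per-cell CPM (0.83). Without the 5 cells with most *CIART* reads, its log2 ratio was 2.26 rather than 1.46. *PER1* was at 0.97 between cells without *FOS* reads. *TEF* was past 2-fold with the mean of per-cell CPM (1.41) and without the 5 cells with most of its reads (1.10). Between pre-transplant cyiPS-Cart and cyiPSC, also from 1 library, 4 genes (*PER2*, *NR1D1*, *NR1D2* and *ARNTL*) were past 2-fold higher and 2 (*TEF* and *CIART*) lower, where 16.3% of 9587 genes were past 2-fold higher and 37.8% lower. *HLF* did not reach 5 CPM in either sample. With TMM or median-of-ratios scaling, which raised all log2 ratios of this comparison by 0.67 and 0.72, *TEF* and *CIART* were no longer past 2-fold lower, nor were they with a pseudocount of 5 CPM. Among the 8 genes that passed the minimum, *ARNTL* and *NR1D2* had the largest ratios, 6.31 (6.09 to 6.54) and 6.02 (5.56 to 6.53). Their intervals overlapped, and *NR1D1* had 4.82 (4.66 to 4.98).

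**Figure D3:**
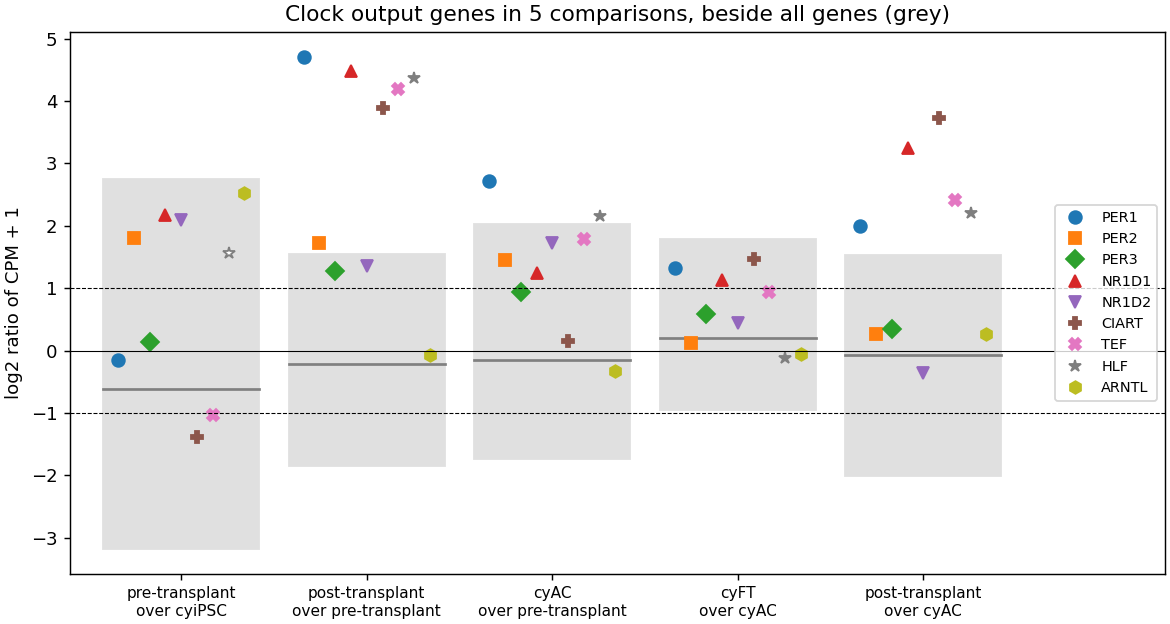
Log2 ratio of CPM + 1 for each of 9 clock output genes in 5 comparisons of 2 samples, with grey boxes from the 5th to the 95th percentile of all genes tested, a grey line at their median and dashed lines at 2-fold. An open marker shows a gene under 5 CPM in both samples. *PER1*, *NR1D1*, *TEF*, *HLF* and *CIART* lie above the grey box in the comparisons of post-transplant cells with pre-transplant cells and with cyAC, and *ARNTL* lies near 0 in all comparisons but that with cyiPSC.

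The ratio of *NR1D1* to *ARNTL* reads within a sample does not depend on the total of the sample. Its log2 value was 0.39 in cyiPSC, 0.00 in the larger and -0.17 in the smaller pre-transplant set, 4.41 in post-transplant, 1.42 in cyAC and 2.61 in cyFT cells. Only the differences are read, since the transcripts differ in length. The log2 ratio was 4.58 higher in post-transplant than in pre-transplant cells, 2.98 higher in post-transplant than in cyAC, and 1.19 higher in cyFT than in cyAC. Against *ARNTL*, the log2 ratio of *TEF* was -2.99 in pre-transplant, 1.44 in post-transplant, -0.75 in cyAC and 0.26 in cyFT cells. That of *HLF* was -4.94, 0.05, -1.97 and -2.05 in the same order. Among the tissues, the log2 ratios of *NR1D1*, *TEF* and *HLF* to *ARNTL* were thus highest in the post-transplant and lowest in the pre-transplant sample. That of *NR1D2* was -2.56 in pre-transplant, -1.05 in post-transplant, -0.40 in cyAC and 0.11 in cyFT cells, so it was highest in cyFT.

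Of 19 further clock genes chosen by role, 17 were listed and 15 passed the minimum in the comparison of post-transplant with pre-transplant cells. Of these, 5 were past 2-fold higher, 2 lower and 8 within 2-fold, with a median log2 ratio of 0.11, where 9.71% of all genes were higher and 18.2% lower, with a median of -0.22. Among the higher genes were *BHLHE40* and *BHLHE41*, which encode the repressors DEC1 and DEC2, the cryptochrome *CRY2*, and *RORA*, whose product activates *ARNTL*. *BHLHE40* had 119.6 CPM in pre-transplant and 1112 CPM in post-transplant cells, a ratio of 9.30 (8.93 to 9.69). *BHLHE41* had 3.76 and 73.1 CPM, *CRY2* 37.8 and 155 CPM, and *RORA* 12.2 and 27.8 CPM.

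The lower genes were *CRY1*, which like *ARNTL* is repressed by the REV-ERBs and is transcribed late in the cycle, and *CSNK1D*, a kinase of the PER proteins. *CRY1* had 36.8 CPM in pre-transplant, 5.06 CPM in post-transplant, 60.6 CPM in cyAC and 40.0 CPM in cyFT cells, so that the post-transplant level was 0.138 (0.115 to 0.164) times that of pre-transplant and 0.0834 (0.0695 to 0.0996) times that of cyAC. Reads of *CRY1* were found in 24.1% of pre-transplant, 3.44% of post-transplant, 23.7% of cyAC and 19.8% of cyFT cells at equal depth. *CSNK1D* had 86.7 and 39.2 CPM in pre-transplant and post-transplant cells. The partners of ARNTL were within 2-fold, with 6.01 and 7.13 CPM of *CLOCK* and 17.4 and 18.8 CPM of *NPAS2*.

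Between cyFT and cyAC, 1 of the 15 clock genes that passed the minimum was past 2-fold higher and 2 were lower, where 13.4% of all genes were higher and 4.73% lower. *CLOCK* had 5.41 CPM in cyAC and 16.6 CPM in cyFT. Among the lower genes was *NPAS2*, with 8.29 and 3.43 CPM in the same order, from 98 and 38 reads. With the mean of per-cell CPM, the difference of its log2 ratio to *ARNTL* was -0.11 rather than -1.22, so the size of its difference is poorly set.

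The summed level of genes of rapid responses to handling and stimulation was highest in the same sample, and their part in the results was not tested. Of 15 immediate early and digestion-response genes, 8 were listed, and 7 of the 8 were past 2-fold higher in post-transplant than in pre-transplant cells, where 9.71% of all genes were. *FOS* had 623 CPM in pre-transplant, 5742 CPM in post-transplant, 754 CPM in cyAC and 1836 CPM in cyFT cells. Summed over the 8 genes, the levels were 1421, 9750, 2042 and 4259 CPM, which is the order of *NR1D1* and *PER1* among these samples. *FOS* made up most of the post-transplant sum, and 3 of the 8 genes were not highest in post-transplant cells. *FOSB* had 78.5 CPM there, 130 CPM in cyAC and 143 CPM in cyFT, and *NR4A1* had 437 CPM there and 455 CPM in cyFT. *DNAJB1*, a heat shock gene and the exception of the 8, had 20.6 CPM in pre-transplant, 13.7 CPM in post-transplant, 41.3 CPM in cyAC and 98.9 CPM in cyFT cells. Cells of a sample with and without *FOS* reads were then compared. Whether the authors' background correction acted on *FOS* is not given in the sources used here. Cells without *FOS* reads may thus have had low counts that were removed. In cyFT, the 145 cells with *FOS* reads had 331 CPM of *NR1D1* and 205 CPM of *PER1*, and the 175 cells without had 249 and 127 CPM. In pre-transplant cells of the larger matrix, the 1959 cells with *FOS* reads had 61.3 CPM of *NR1D1* and the 1568 without had 51.7 CPM, and the log2 ratios of the 9 genes between these cells ranged from -0.07 to 0.43. Single genes differed more in the samples of 320 cells. In cyAC, cells with *FOS* reads had 2.37 (2.04 to 2.76) times the *PER2* and 0.541 (0.464 to 0.629) times the *PER3* of those without. Without the 5 cells with most reads in each class, *PER2* was at 65.5 and 30.8 CPM and *PER3* at 29.5 and 61.4 CPM. *CIART* was found in too few of these cells for a direction, since it had 10.9 and 3.41 CPM in cyAC cells with and without *FOS* reads, but 0.209 and 0.426 CPM without the 5 top cells of each class. In cyFT *CIART* had 26.9 and 12.4 CPM in cells with and without *FOS* reads, and 12.0 and 2.83 CPM without the 5 top cells of each class. In the post-transplant sample *FOS* reads were found in 92.5% of cells. The 24 cells without them, too few for a class of their own here, had 1038 CPM of *NR1D1*, 201 CPM of *TEF*, 110 CPM of *PER1* and 129 CPM of *ARNTL*. *NR1D1*, *TEF*, *HLF* and *CIART* stayed past 2-fold higher than in cyAC between cells without *FOS* reads. Against pre-transplant cells without *FOS* reads, the log2 ratio of *PER1* was 3.48 rather than 4.71, that of *HLF* 3.44 rather than 4.37 and that of *TEF* 4.94 rather than 4.20. In this comparison *ARNTL* moved from -0.07 to 1.005 and was just past 2-fold, with 129 CPM in the 24 post-transplant cells and 64.0 CPM in the 148 pre-transplant cells.

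Targets of glucocorticoids and of cAMP were also counted, since either can act on *PER1*. Of 8 glucocorticoid targets, 6 passed the minimum in the comparison of post-transplant with pre-transplant cells, of which *TSC22D3* and *ZBTB16* were past 2-fold higher and *ERRFI1* lower. Of 8 cAMP-responsive genes 7 were listed, of which *NR4A1*, *NR4A2* and *PDE4B* were past 2-fold higher and 0 lower. Of all genes, 9.71% were past 2-fold higher and 18.2% lower in this comparison. *NR4A1* is in the list of immediate early genes as well. Against cyAC, 2 of the 7 cAMP-responsive genes were past 2-fold higher in post-transplant cells and 4 lower, and of the 8 glucocorticoid targets 2 were higher and 3 lower, where 11.1% of all genes were higher and 16.3% lower.

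The level of *NR1D1* in the post-transplant sample was spread over nearly all cells. Its lower quartile across the 320 cells was 655 CPM, its median 1082 CPM and its upper quartile 1657 CPM, while the medians were 0 CPM in pre-transplant and cyAC and 73.6 CPM in cyFT cells. The 5 cells with the most *NR1D1* reads held 6.69% of them in post-transplant, 14.9% in pre-transplant, 17.6% in cyAC and 19.8% in cyFT cells. The median was 164 CPM for *PER1* and 86.0 CPM for *TEF* in post-transplant cells, and 0 CPM for *PER2*, *PER3*, *NR1D2*, *HLF*, *CIART* and *ARNTL*, which had reads in fewer than 50% of the cells.

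**Figure D4:**
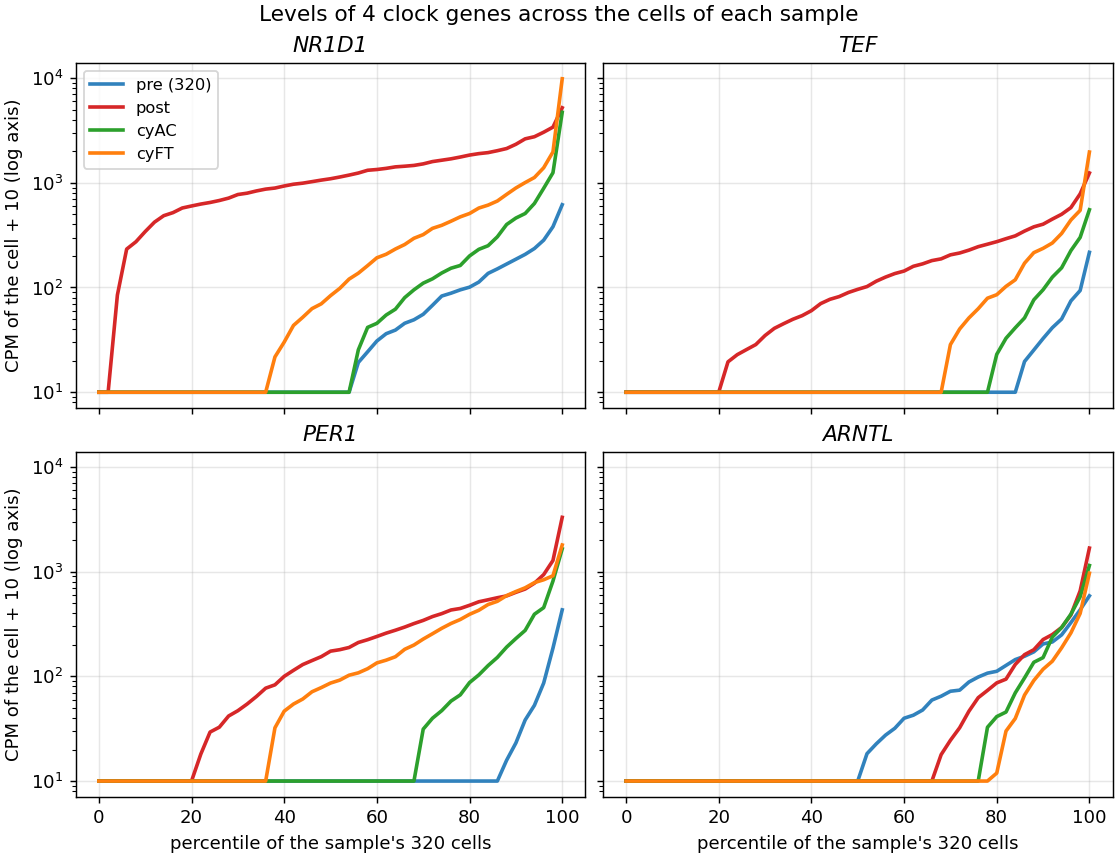
CPM of the single cell plus 10 (log axis) against the percentile of the cell among the 320 of its sample, for 4 genes in 4 samples. A line at 10 stands for cells without a read. The post-transplant line of *NR1D1* leaves that floor within the lowest percentiles and has its median at 1082 CPM. Every *ARNTL* line stays at the floor for more than 50% of the cells.

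Across the cells of 1 sample the members were at most weakly correlated. Over the 28 pairs of 8 genes with reads in at least 25% of post-transplant cells, Spearman's rho of thinned counts across 320 cells ranged from -0.03 to 0.14, with a median of 0.04. The highest was that of *NR1D1* and *TEF*, and that of *NR1D1* and *ARNTL* was 0.0019. The same pair, *NR1D1* and *TEF*, gave the highest value in cyFT, 0.24 over 288 cells. In cyiPSC the 15 pairs lay between -0.03 and 0.07 over 2493 cells. Cells of a sample share library, digestion and amplification, the counts are sparse, and such values are no finding on co-regulation. Of the genes that are not members, *THAP1*, *BHLHE40*, *C11orf91*, *MRI1* and *P3H4* had the highest correlations with *NR1D1* across post-transplant cells, 0.22, 0.20, 0.20, 0.19 and 0.19, among 4179 genes with a median of 0.0029. The lowest values were of like size, down to -0.20 for *CST3* and *CLSTN1*.

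Cell classes inside a sample were compared for the collagens that mark fibrous tissue and cartilage, *COL1A1* and *COL2A1*. Whether the authors' background correction acted on either gene is not given in the sources used here. Cells without reads of a collagen may thus have had low counts of it that were removed. In cyFT, the 170 cells with *COL1A1* and no *COL2A1* reads had 98.4 CPM of *TEF* (89.3 to 108), 416 CPM of *NR1D1* (397 to 436.2) and 26.6 CPM of *ARNTL* (21.9 to 31.9). The 84 cells with *COL2A1* and no *COL1A1* reads had 24.3 CPM of *TEF* (19.97 to 29.3), 220 CPM of *NR1D1* (206 to 234) and 80.6 CPM of *ARNTL* (72.5 to 89.3). The opposed genes thus differed in opposite directions between the classes. The share of cells with an *ARNTL* read was 9.41% (5.48 to 14.8) in the *COL1A1* class and 45.2% (34.3 to 56.5) in the *COL2A1* class, with a median of 21830 and 47802.5 reads a cell. Without the 5 cells with most reads in each class, *TEF* was at 72.8 and 8.26 CPM and *ARNTL* at 6.70 and 45.8 CPM. Of the cells with at least 3 immune markers, 0 were in the *COL1A1* class and 1 was in the *COL2A1* class.

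In the larger pre-transplant set, 254 cells with *COL1A1* alone and 2588 cells with *COL2A1* alone differed in the same directions for these genes. *PER1* had 31.7 CPM (29.0 to 34.5) in the first and 9.52 CPM (9.06 to 10.00) in the second class, *NR1D1* 94.0 and 54.9 CPM, *TEF* 16.2 and 8.02 CPM, and *ARNTL* 44.5 and 62.6 CPM. On the scale of CPM + 1, the log2 ratio between these classes was 1.64 for *PER1* and lay between -0.48 and 0.93 for the other 8 genes. The 2 classes of either sample come from 1 library, and cells are not replicates of a condition.

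**Figure D5:**
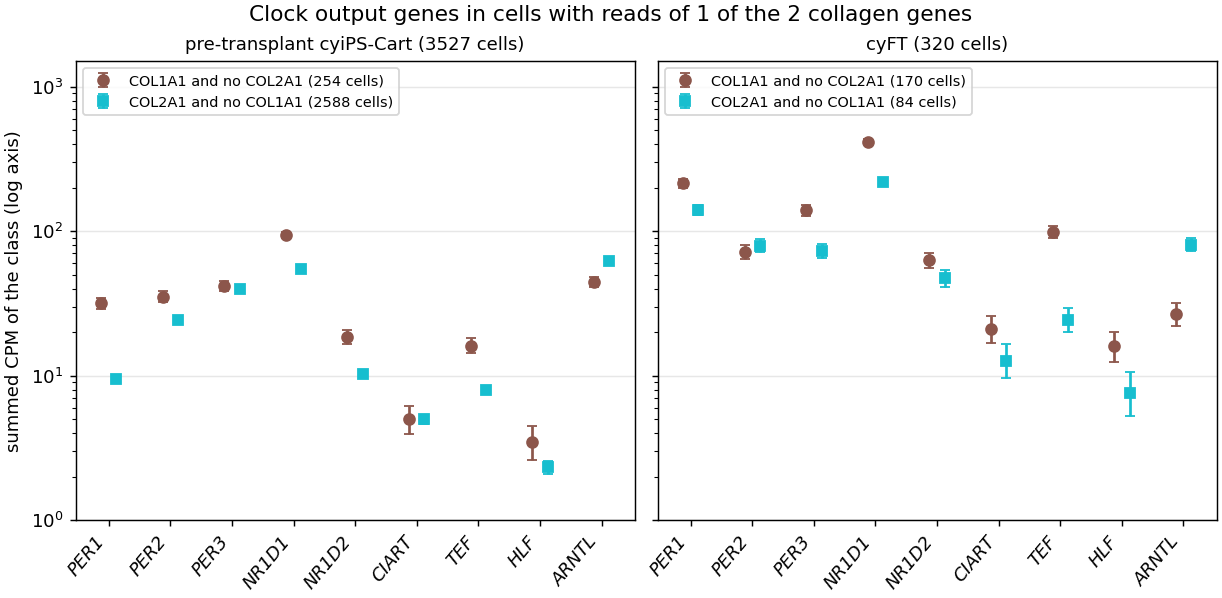
Summed CPM (log axis) of 9 clock output genes in cells with reads of *COL1A1* and none of *COL2A1* (circles) and the reverse (squares), in the larger pre-transplant set and in cyFT, with exact 95% Poisson intervals. In both panels *NR1D1* and *TEF* are higher in the *COL1A1* class and *ARNTL* is higher in the *COL2A1* class.

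The background correction may have acted differently on *COL1A1* and *COL2A1* in each sample. A class set by the absence of *COL1A1* reads may therefore not be the same in every tissue. With that limit, the tissues were also compared within the class of cells with *COL2A1* and no *COL1A1* reads. *NR1D1* had 58.5 CPM in 242 such pre-transplant cells, 1297 CPM in 265 post-transplant cells, 112 CPM in 276 cyAC cells and 220 CPM in 84 cyFT cells. *PER1* had 6.79, 294, 62.0 and 140 CPM in the same order, *TEF* 5.74, 163, 28.4 and 24.3 CPM, and *ARNTL* 62.6, 56.4, 48.6 and 80.6 CPM. The post-transplant sample stood apart in this class too for *NR1D1*, *PER1* and *TEF*. *TEF* of cyFT was 1.94 (1.70 to 2.22) times that of cyAC over all cells, whereas in this class it was not above the cyAC level.

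Other classes were set by *PRG4* and by cycling markers. The limit from the background correction applies to cells without *PRG4* reads as well. Post-transplant cells with reads of *PRG4*, which encodes the lubricin of the cartilage surface, had 1280 CPM of *NR1D1* and those without had 1177 CPM, and *CIART* had the largest difference of the 9 genes, with 109 and 61.4 CPM in 227 and 93 cells. In cyiPSC, 2351 of 2500 cells had reads of at least 3 cycling markers, and between these and the other 149 cells the log2 ratios of the 9 genes ranged from -1.14 to 0.25. *NR1D1* had 11.6 CPM in the cycling and 25.5 CPM in the other cells, and *NR1D2* 1.80 and 5.16 CPM. These differences rest on few cells, since without the 5 cells with most reads in each class *NR1D1* was at 11.23 and 10.98 CPM and *NR1D2* at 1.59 and 0.879 CPM. In the smaller pre-transplant set, 53 cells with *PRG4* reads had 1.499 CPM of *TEF* and 4.00 CPM of *NR1D2*, against 9.25 and 12.03 CPM in the 267 cells without. Only 3 and 4 of the 53 cells had reads of these genes. In the larger set, the log2 ratios of the 9 genes between such cells ranged from -0.39 to 0.34.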

How the data were processed

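Single-cell transcriptomes of 5 samples in 3 libraries were analysed. The authors deposited counts of reads per gene and cell. To make the counts, the authors assigned reads to Ensembl transcripts (Macaca_fascicularis_6.0) with Bowtie2 2.4.2, kept cells above the knee plot's inflection, separated samples by hashtag, set presumed background counts to 0 in genes with a high maximum, removed cells rich in mitochondrial reads and reduced 4 samples to 320 cells each. Cells were taken to samples by name prefix. The 3 hashtag libraries were not used here. Reads were summed per sample and scaled to CPM over all listed genes. No test was run and no p is given, since each condition is a single sample. Intervals (95%) are exact Poisson, Clopper-Pearson or conditional binomial and cover counting error only, and are too narrow because amplified reads are not independent molecules. Ratios were log2 of CPM + 1, with at least 5 CPM in either sample. As a check of the code, the 2-fold rule was run on simulated Poisson counts modelled on cyAC and pre-transplant cyiPS-Cart. Of 14020 genes, 200 were changed by a factor of 4, and the rule recovered 99.0% of them. These counts held no variation between cells, libraries or animals, so the recovery says nothing on the calls in these data. Cells were thinned with numpy 2.4.6, and scaling factors came from edgeR 4.0.16 and DESeq2 1.42.0. Doublets were marked with scrublet in scanpy 1.11.5 for an alternative only, and the 14 cells marked in the larger matrix are too few for the caller to be taken to have worked there.

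The genes and lists were chosen with earlier results of these data known. Named genes are all members, every further clock gene past 2-fold between post-transplant and pre-transplant cells or between cyFT and cyAC, the 5 genes most correlated with *NR1D1* in post-transplant cells, and *THRA*. Of the further clock genes, 1 that the rule names is counted but not reported here. The other genes with values, among them *FOS*, *DNAJB1*, *CLOCK* and *NPAS2* in the transplant, were named after their values were seen.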

Additional observations from a re-analysis of the deposited data

How the results depend on the processing

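No paired analysis was possible because each condition is 1 sample. The counts of members past 2-fold stayed within 1.5 times under every alternative run except a minimum of 50 CPM, which left 2 members between pre-transplant cyiPS-Cart and cyiPSC and 3 between cyAC and pre-transplant cyiPS-Cart, because fewer members pass it. Of the 28 member ratios past 2-fold, 0 changed sign under any alternative that scales, filters or weights the cells otherwise, and 25 to 28 stayed past 2-fold. The difference of the log2 ratio of *NR1D1* to *ARNTL* with the mean of per-cell CPM was -0.48 between pre-transplant cyiPS-Cart and cyiPSC, 4.44 between post-transplant and pre-transplant, 1.87 between cyAC and pre-transplant, 1.48 between cyFT and cyAC and 2.57 between post-transplant and cyAC. Without the 5 cells with most reads of the gene, it was 4.85 between post-transplant and pre-transplant cyiPS-Cart. The cause of these shifts was not tested. After the data were seen, cells with 3 or more immune markers were left out, and separately cells with *FOS* reads. Leaving out the first moved no member across 2-fold. Between cells without *FOS* reads, the log2 ratio of *PER1* was 0.97 rather than 1.32 between cyFT and cyAC. That of *ARNTL* was 1.005 rather than -0.07 between post-transplant and pre-transplant cyiPS-Cart, resting on the 24 post-transplant cells without *FOS* reads.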
